A study of Mus musculus with 18 samples.

Results

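Voltage-gated calcium and sodium channels open when the membrane depolarizes and let calcium or sodium ions into the cell. The genes described here are those whose symbols name a subunit of such a channel. This rule matches names and no measured value, but it was chosen with earlier results of these data known. It found 40 of the 22783 genes of the expression table, 26 of calcium channels and 14 of sodium channels, and 28 of them (20 calcium, 8 sodium) had an FPKM of at least 1 in 3 or more of the 18 libraries. FPKM is the number of fragments scaled to transcript length and library size, so levels can be set side by side between genes. The other 12 genes are listed as silent.

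All libraries came from the cerebellum of FVB mice labelled Cck-/- in both genotypes, a label for loss of the gene of the neuropeptide cholecystokinin. One genotype, ATXN1[30Q]D776/Cck-/-, bears a transgene as well and its libraries are called transgenic here. The transgene encodes ataxin-1, a protein that is mutated in a human spinocerebellar ataxia. The label gives this copy 30 glutamines (30Q) and aspartate in place of a phosphorylated serine (D776). The other genotype, Cck-/- without the transgene, is what they are set against. Each genotype had 3 libraries at postnatal weeks 5, 12 and 28. The labels do not name the promoter of the transgene; as background, the published ATXN1[30Q]D776 line drives it from a Purkinje cell promoter. Nothing in them states that replicates were different animals, so p-values measure the spread between these libraries only.

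A calcium channel is built around a pore subunit (α1), with a cytoplasmic β subunit that brings it to the membrane and an extracellular α2δ subunit that raises its surface density. The γ family includes the TARPs, which carry AMPA-type glutamate receptors to the synapse. A sodium channel is a pore subunit with β subunits that set its gating and adhesion. Purkinje cells, which carry the output of the cerebellar cortex, fire on their own through resurgent sodium current and rely on P/Q-type and T-type calcium channels. Loss of subunits of these families causes ataxia in mice: tottering (Cacna1a), lethargic (Cacnb4), ducky (Cacna2d2), stargazer (Cacng2) and med (Scn8a) are alleles of genes described below.

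The promoters shown here are those of the 3 members with the smallest p between genotypes at week 28 among those with a RefSeq entry: Cacnb2 and Scn4b, which were lower in transgenic libraries, and Cacna1e, which was higher. They are RefSeq sequences of the GRCm38.p6 build (the mm10 coordinates), 250 bases before to 50 after an annotated start, 5′ to 3′ on the strand of the gene, and capitals mark a GC box, the motif GGGCGG on either strand. Cacnb2 has several starts, and the upstream and an internal one are given.
Cacnb2 upstream, chr2:14604056-14604355, plus strand: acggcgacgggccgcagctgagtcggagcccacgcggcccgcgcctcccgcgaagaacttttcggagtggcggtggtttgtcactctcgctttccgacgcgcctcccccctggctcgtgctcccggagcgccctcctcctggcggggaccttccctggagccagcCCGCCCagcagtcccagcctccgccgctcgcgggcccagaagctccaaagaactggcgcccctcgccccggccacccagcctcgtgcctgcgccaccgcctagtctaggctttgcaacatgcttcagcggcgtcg
Cacnb2 internal, chr2:14823842-14824141, plus strand: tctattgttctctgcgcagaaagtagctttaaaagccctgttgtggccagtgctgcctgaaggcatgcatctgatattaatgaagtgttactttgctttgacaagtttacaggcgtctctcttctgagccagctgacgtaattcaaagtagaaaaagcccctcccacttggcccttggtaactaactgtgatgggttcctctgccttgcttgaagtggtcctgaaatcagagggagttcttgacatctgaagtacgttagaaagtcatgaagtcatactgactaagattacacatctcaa
Scn4b, chr9:45138374-45138673, plus strand: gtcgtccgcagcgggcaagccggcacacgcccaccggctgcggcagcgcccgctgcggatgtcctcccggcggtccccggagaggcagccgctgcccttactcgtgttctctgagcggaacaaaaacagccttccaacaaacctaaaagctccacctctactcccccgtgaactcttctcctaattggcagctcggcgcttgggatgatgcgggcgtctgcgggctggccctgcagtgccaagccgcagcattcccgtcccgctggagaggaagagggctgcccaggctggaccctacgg
Cacna1e, chr1:154725871-154726170, minus strand: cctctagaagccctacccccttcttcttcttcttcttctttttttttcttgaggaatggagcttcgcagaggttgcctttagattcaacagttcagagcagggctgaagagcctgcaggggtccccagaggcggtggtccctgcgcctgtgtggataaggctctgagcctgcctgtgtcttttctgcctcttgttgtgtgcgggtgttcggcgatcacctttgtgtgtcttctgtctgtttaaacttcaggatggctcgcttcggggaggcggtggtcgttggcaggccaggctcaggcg
The G and C content was 71.7% in the upstream Cacnb2 promoter and 44% in the internal one, against 66.3% at Scn4b and 55.3% at Cacna1e. A GC box was found in the upstream Cacnb2 promoter and in none of the other 3. Of the 40 members, 30 had a RefSeq promoter and together they had 41 promoters. The octamer TGAATGGA, which the repressor Capicua, a partner of ataxin-1, is known to bind, was in 2 of these 41 promoters on either strand, and the octamer TGAATGAA in 0. Those 2 were a promoter of Scn10a, a silent member, and a promoter of Scn8a, which was called in no genotype comparison. Of the 10 members called between genotypes, 8 had a RefSeq promoter, and Cacna1g was not among them. None of the promoters of those 8 held either octamer. With octamers as rare as given next, so few promoters cannot show a lack of them. Among all 32851 promoters of 300 bases in the RefSeq table, 1.21% held TGAATGGA and 1.3% held TGAATGAA. The hexamer AGGTCA, known from nuclear receptor binding, was in 4 of the 41, against 16.3% of all promoters, and the GC box in 16 of the 41, against 35.7%. A match is a description of these letters and not a binding site.

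The 18 libraries summed to between 389248 and 441509 FPKM, and the log2 values of libraries of 1 group correlated at 0.984 to 0.996. Read counts are not in the table, so depth is unknown and no counting interval is given. Every one of 18 Purkinje cell markers and 12 granule cell markers reached 1 FPKM in at least 1 library, and the labelled tissue is cerebellum; of 8 midbrain and forebrain markers, 4 stayed under 1 in all libraries, Tbr1 and Emx1 among them, as did 5 of 8 brainstem markers and 6 of 8 of skeletal muscle. Transgenic week 5 replicates 1 and 2 and transgenic week 28 replicate 3 were low in choroid plexus genes (mean log2 level 1.40, 1.20 and 1.57, against at least 3.12 in the others). Transgenic week 12 replicate 2 and transgenic week 28 replicate 1 held both Xist and Ddx3y at 1 FPKM or more, and the labels give no sex. Cck was above 0 in all 18 libraries, which goes against the Cck-/- label as a statement about this RNA; the state of the alleles cannot be read from a value per gene. It stood at 81.0, 112 and 102 FPKM in transgenic and 25.8, 17.1 and 19.5 FPKM in Cck-/- week 5 libraries, so at that age the transgene and the level of Cck cannot be told apart. It stood at 17.1, 14.4 and 12.8 FPKM in transgenic and 13.8, 16.6 and 11.1 FPKM in Cck-/- libraries of week 12, and at 8.35, 6.34 and 4.85 FPKM in transgenic and 7.34, 3.85 and 3.71 FPKM in Cck-/- libraries of week 28.

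Purkinje cell markers moved with genotype and are set beside the channel results. The summed level of the 18 markers at week 28 was 1657, 1348 and 2572 FPKM in transgenic libraries and 4433, 4293 and 4129 FPKM in Cck-/- libraries. All 18 were called lower at week 28 (median log2 fold change -1.38). At week 12 the sum was 3187, 3321 and 3559 FPKM in transgenic and 4689, 4468 and 4443 FPKM in Cck-/- libraries, and at week 5 it was 3749, 3297 and 3384 FPKM in transgenic and 4551, 4275 and 4392 FPKM in Cck-/- libraries, with 8 of 18 called lower at each of these ages (median -0.61 at week 12 and -0.39 at week 5). In whole tissue, fewer cells of a type and less RNA per cell cannot be told apart. The part of these markers in the channel results was not tested.

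The members spanned a wide range of levels. The γ subunit gene Cacng7 had a mean of 211 FPKM over the 18 libraries, the sodium channel β subunit gene Scn2b 94.0 FPKM and the calcium channel β subunit gene Cacnb4 68.2 FPKM. Among pore genes, Cacna1a (P/Q type) led at 59.2 FPKM, then Scn2a1 at 54.7 FPKM, Cacna1g (T type) at 37.7 FPKM, Scn1a at 35.3 FPKM and Scn8a at 29.2 FPKM. Cacng2 averaged 37.8 FPKM, Cacna2d2 30.4 FPKM, Scn4b 24.8 FPKM, Cacna2d3 22.3 FPKM, Cacnb3 20.0 FPKM and Cacna1e (R type) 19.7 FPKM. Between 10 and 15 FPKM lay Cacng5 (14.9), Cacng4 (14.4), Cacna1i (13.1), Cacna2d1 (12.4) and Cacnb2 (11.8), which makes 20 members with a mean of at least 10 FPKM. Below them were Cacna1d (9.91 FPKM), Cacnb1 (7.99 FPKM), Cacng8 (7.97 FPKM), Cacna1b (7.94 FPKM), Cacna1c (7.48 FPKM), Cacng3 (4.64 FPKM), Scn3b (2.21 FPKM) and Scn3a (0.777 FPKM). All 28 except Scn3a and Scn3b reached 1 FPKM in each of the 18 libraries. The order has close neighbours, such as Cacng2 and Cacna1g, whose ranges over libraries (24.3 to 43.9 and 15.4 to 47.8 FPKM) overlap almost entirely.

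**Figure D1:**
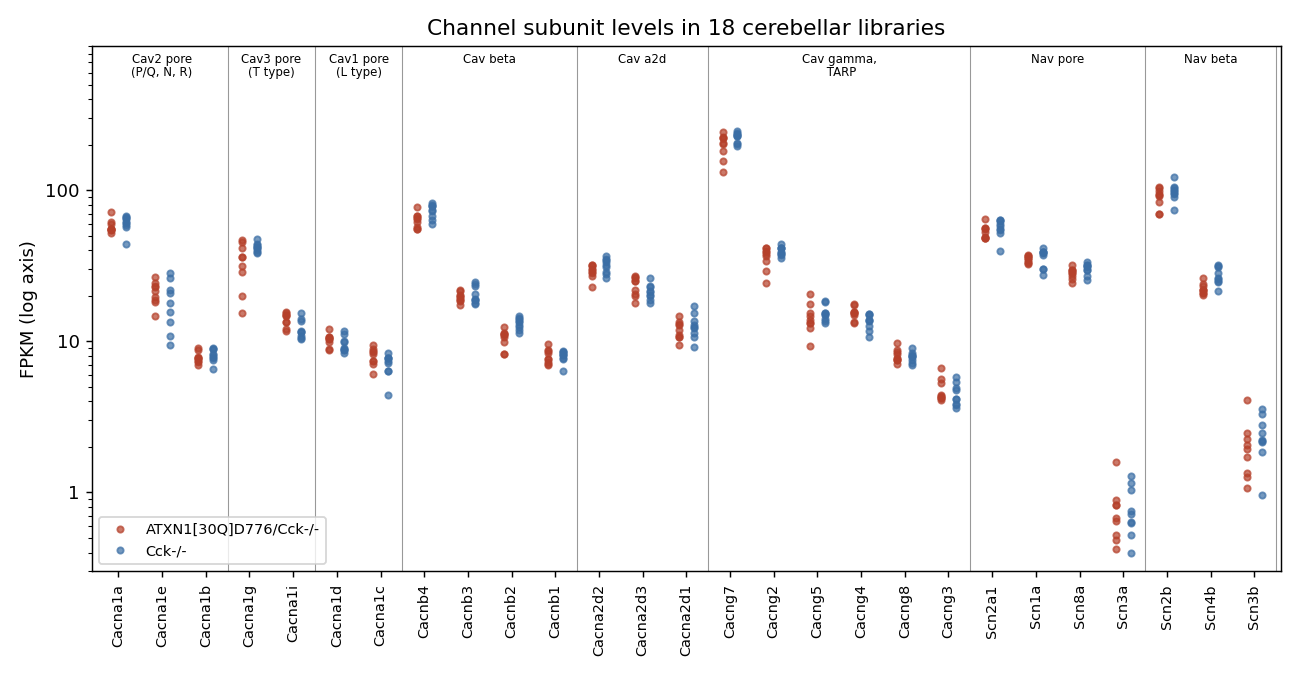
FPKM on a log axis of the expressed channel subunit genes described here, grouped by subunit role and ordered by mean within it; each point is 1 library, transgenic left and Cck-/- right within a gene, 9 libraries each. Cacng7 (mean 211 FPKM) stands at the top and Scn3a (0.777 FPKM) at the bottom.

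The most variable members were Scn3b and Scn3a, the sodium channel genes that are strong in embryonic and forebrain neurons. The highest Scn3b value over the lowest was 4.27-fold and that of Scn3a 4.04-fold, against 3.11-fold for Cacna1g, 2.99-fold for Cacna1e and 1.37-fold for Scn8a. Scn3b stood at 4.07 FPKM in transgenic week 28 replicate 2, 3.58 FPKM in Cck-/- week 28 replicate 1, and 2.79 and 3.31 FPKM in Cck-/- week 12 replicates 1 and 2. Those 4 libraries also had the highest sums of the midbrain and forebrain markers, 81.0, 88.4, 99.1 and 58.8 FPKM, while the other 14 had between 16.6 and 51.7 FPKM. These are the libraries in which Scn3a reached 1 FPKM, at 1.59, 1.28, 1.15 and 1.04 FPKM.

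Among the 12 silent members were Cacna1f, Cacna1h, Cacna1s, Cacna2d4, Cacng1, Cacng6, Scn10a, Scn11a, Scn4a, Scn7a and Scn9a. They include the pore genes of skeletal muscle (Cacna1s, Scn4a), retina (Cacna1f) and sensory ganglia (Scn9a, Scn10a, Scn11a), and the skeletal muscle γ subunit Cacng1. Of the 12, 6 stayed under 0.2 FPKM in every library, though 8 were above 0 in all 18. Cacna1h, a T-type pore gene, was just outside the rule, with 0.322 to 1.31 FPKM and 1 library at 1 FPKM or more. Scn3a was just inside it, with 0.394 to 1.59 FPKM and 4 such libraries.

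Of the 3 genotype comparisons, that at week 28 gave the most calls. Of the 28 members, 8 were called at an adjusted p under 0.05 (28.6%), while 10.7% of all 13487 genes tested were called. Cacna1e and Cacna1i, an R-type and a T-type pore gene, rose in transgenic libraries; 4.54% of all genes rose. Of 6 members that fell, Cacna1g, Cacnb2, Cacng2, Cacng7 and Scn4b are described below; 6.13% of all genes fell. The median log2 fold change of the 28 was -0.0024, close to that of all genes (0.0046). The 3 transgenic libraries lay above the 3 Cck-/- libraries for 5 members and below them for 7, against 13.2% and 12.9% of all genes. At week 12 and at week 5, 1 member was called at each age (3.57%), against 1.36% of all genes at week 12 and 7.67% at week 5. At week 12 the transgenic libraries lay above for 1 member and below for 8, against 7.95% and 8.74% of all genes, and at week 5 above for 4 and below for 2, against 15.1% and 16%.

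**Figure D2:**
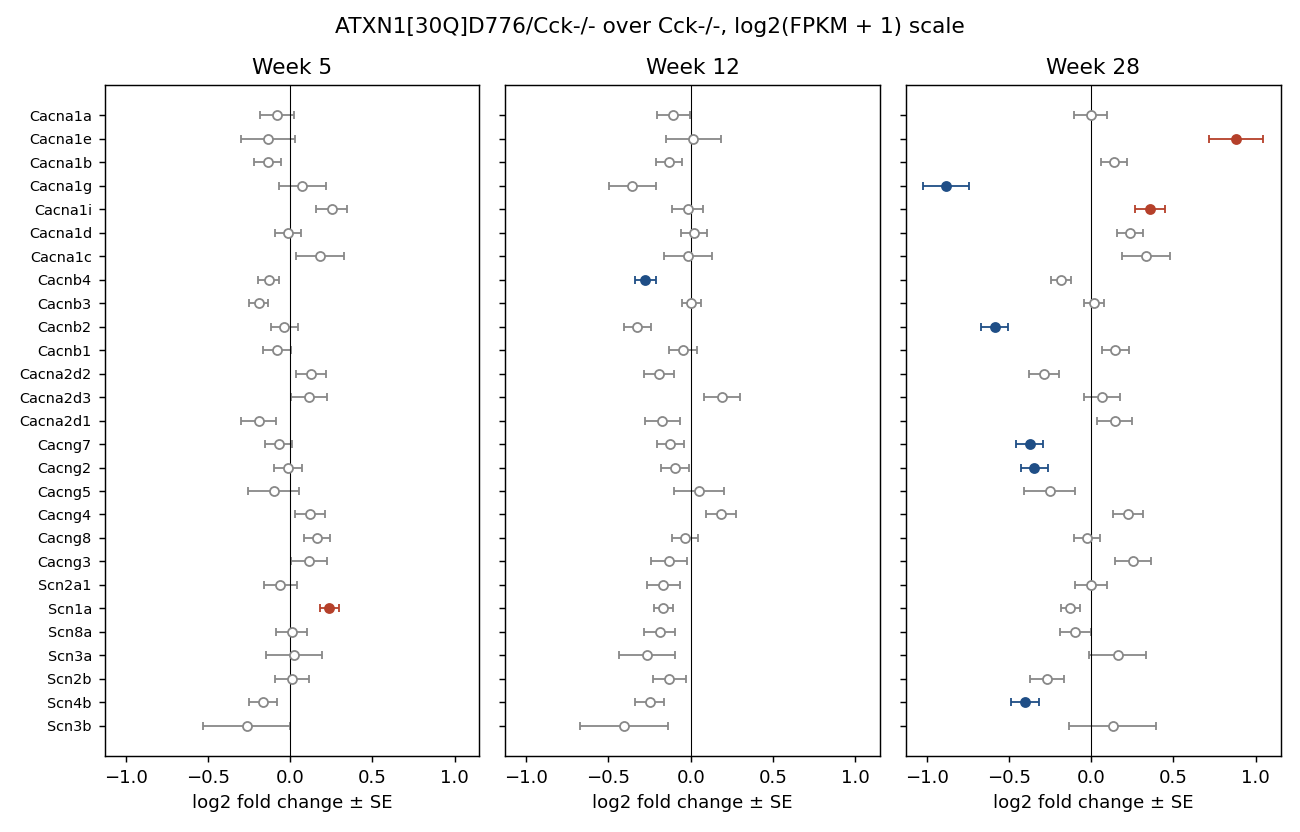
Log2 fold change of transgenic over Cck-/- libraries for the same genes at weeks 5, 12 and 28, on the log2(FPKM + 1) scale, with SE as bars and filled points for an adjusted p under 0.05. The spread of the points is widest at week 28, from -0.88 for Cacna1g to 0.88 for Cacna1e.

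Among the pore genes of presynaptic calcium channels, the R-type gene Cacna1e differed at week 28 and the P/Q-type gene Cacna1a did not pass the test. Cacna1e (chr1:154392519-154725920, minus strand) stood at 21.5, 24.2 and 18.7 FPKM in transgenic libraries and at 9.40, 10.9 and 13.5 FPKM in Cck-/- libraries of week 28. Every transgenic value lay above every Cck-/- value (limma, log2 fold change 0.88, SE 0.17, adjusted p = 0.00286). At week 12 it stood at 23.0, 14.6 and 18.1 FPKM in transgenic and 20.9, 15.7 and 17.9 FPKM in Cck-/- libraries, and the groups overlapped. At week 5 it stood at 26.7, 23.1 and 19.6 FPKM in transgenic and 21.9, 28.1 and 26.3 FPKM in Cck-/- libraries, again with overlap. The level in Cck-/- libraries was thus lower at week 28 than at week 12 (limma, log2 fold change -0.65, SE 0.17, adjusted p = 0.0241), while the transgenic values of weeks 12 and 28 overlapped. The age change in Cck-/- libraries no longer passed without Cck-/- week 12 replicate 1 (adjusted p = 0.0915) or replicate 3, or without Cck-/- week 28 replicate 1 or 2.

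Cacna1a, the gene mutated in tottering mice and expanded in spinocerebellar ataxia of another type, stood at 54.1, 52.4 and 55.1 FPKM in transgenic and 43.9, 58.7 and 61.0 FPKM in Cck-/- libraries of week 28 (limma, log2 fold change -0.0033, SE 0.10, adjusted p = 0.991). The transgenic values lay above Cck-/- replicate 1 and below Cck-/- replicates 2 and 3, so the overlap rested on 1 library. In fits without 1 library the log2 fold change at week 28 ran from -0.15 to 0.084, and it was called in none. It stood at 55.2, 54.8 and 60.0 FPKM in transgenic and 61.5, 57.3 and 64.2 FPKM in Cck-/- libraries at week 12, and at 71.3, 61.9 and 55.6 FPKM in transgenic and 66.2, 65.3 and 67.3 FPKM in Cck-/- libraries at week 5. The log2 fold change was -0.10 (SE 0.10, adjusted p = 0.770) at week 12 and -0.081 (SE 0.10, adjusted p = 0.704) at week 5 by limma. Cacna1b, the N-type pore gene, ranged over 6.53 to 9.002 FPKM in all libraries and was called at no age.

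As a share of the summed P/Q-, N- and R-type pore levels, Cacna1e made up 25.8%, 28.3% and 22.9% in transgenic and 15.7%, 14.1% and 16.4% in Cck-/- libraries of week 28. The share of Cacna1a was 64.9%, 61.2% and 67.8% in transgenic and 73.4%, 76.1% and 74.2% in Cck-/- libraries. Neither pair of ranges overlapped at week 28. An exact permutation test of 3 libraries against 3 cannot give a two-sided p under 0.10, so the shares are descriptions.

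The T-type pore genes, whose channels open near rest and drive burst firing, moved in opposite directions at week 28. Cacna1g (chr11:94408391-94474198, minus strand), the T-type gene known from Purkinje cells, stood at 20.0, 15.4 and 28.9 FPKM in transgenic libraries and at 39.0, 38.3 and 40.0 FPKM in Cck-/- libraries. Its log2 fold change was the most negative of the 28 at this age (limma, log2 fold change -0.88, SE 0.14, adjusted p = 0.000878). The 3 transgenic values differed among themselves by more than the 3 Cck-/- values, and replicate 3, the highest, was also the transgenic week 28 library with the highest sum of Purkinje cell markers (2572 FPKM) and the one low in choroid plexus genes. Without that library the log2 fold change was -1.11, and in every fit without 1 library the call held. Fitted on the week 28 libraries alone, the adjusted p was 0.0785.

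The Cacna1g values at earlier ages were closer. At week 12 they were 36.3, 31.6 and 36.1 FPKM in transgenic and 47.8, 42.3 and 43.7 FPKM in Cck-/- libraries, which did not overlap but did not pass the test (limma, log2 fold change -0.35, SE 0.14, adjusted p = 0.311), except without transgenic week 28 replicate 3 (adjusted p = 0.0382). At week 5 they were 46.6, 45.4 and 41.4 FPKM in transgenic and 41.9, 43.1 and 41.3 FPKM in Cck-/- libraries (limma, log2 fold change 0.075, SE 0.14, adjusted p = 0.815). Over the 3 ages the transgenic mean was 44.5 ± 2.75, 34.7 ± 2.64 and 21.4 ± 6.87 FPKM, against 42.1 ± 0.924, 44.6 ± 2.84 and 39.1 ± 0.857 FPKM in Cck-/- libraries (SD, n = 3 each).

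Cacna1i (chr15:80287238-80398292, plus strand), the T-type gene known from thalamus and other forebrain regions, stood at 15.02, 15.3 and 13.3 FPKM in transgenic and 10.5, 11.5 and 11.4 FPKM in Cck-/- libraries of week 28. The groups did not overlap (limma, log2 fold change 0.36, SE 0.093, adjusted p = 0.0236). The call was lost without transgenic week 28 replicate 2 (adjusted p = 0.112) or replicate 1 (0.0940), and without Cck-/- week 28 replicate 1 (0.0548) or replicate 2 (0.0565). At week 12 the values overlapped, 15.7, 12.0 and 14.8 FPKM in transgenic and 15.4, 14.0 and 13.5 FPKM in Cck-/- libraries. At week 5 they were 13.5, 14.7 and 11.7 FPKM in transgenic and 10.4, 11.7 and 10.8 FPKM in Cck-/- libraries (limma, log2 fold change 0.25, SE 0.093, adjusted p = 0.117).

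The makeup of the T-type sum is described with no test. Cacna1g made up 55.9%, 48.0% and 67.3% of it in transgenic and 77.3%, 76.3% and 76.9% in Cck-/- libraries of week 28. In transgenic week 28 replicate 2, Cacna1g and Cacna1i were at the same level, with a ratio of 1.00, while the ratio in the Cck-/- libraries of week 28 was 3.71, 3.34 and 3.49. The T-type sum itself was 35.8, 32.0 and 42.9 FPKM in transgenic and 50.4, 50.1 and 52.0 FPKM in Cck-/- libraries.

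**Figure D3:**
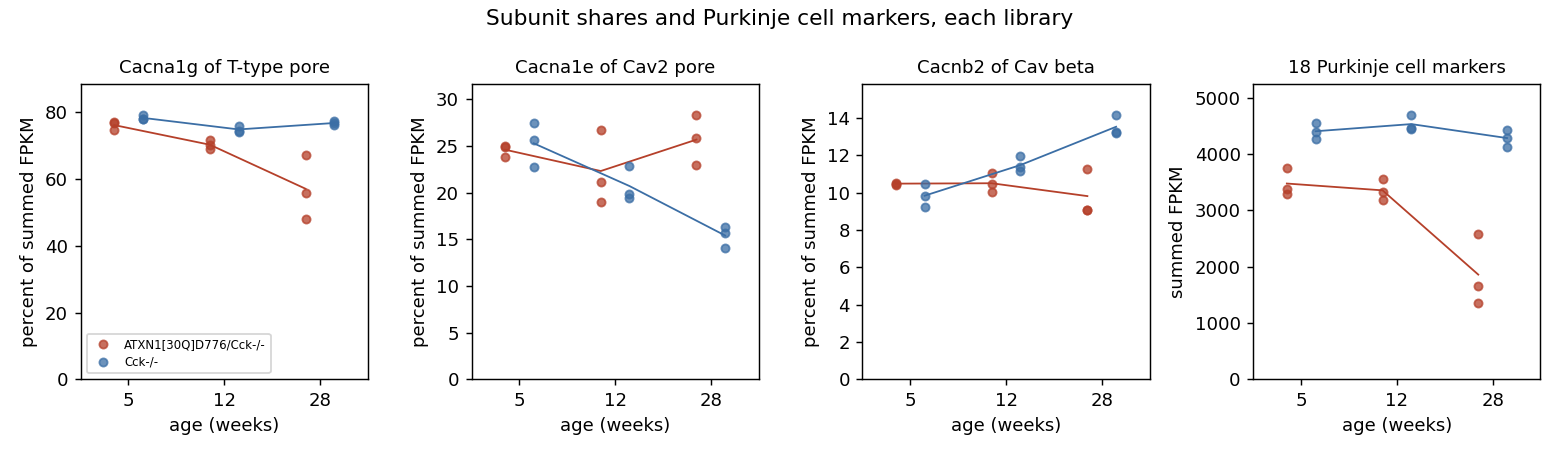
Share of Cacna1g in the T-type pore sum, of Cacna1e in the P/Q-, N- and R-type sum and of Cacnb2 in the calcium channel β sum (percent), and the summed Purkinje cell markers (FPKM), by age in weeks at equal spacing; points are libraries, transgenic left and Cck-/- right, and lines join group means. At week 28 the transgenic Cacna1g shares (48.0% to 67.3%) lie below and the Cacna1e shares (22.9% to 28.3%) above those of the Cck-/- libraries.

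The expressed L-type pore genes, Cacna1c and Cacna1d, were called in no genotype comparison. Cacna1d stood at 10.5, 10.3 and 10.3 FPKM in transgenic and 8.71, 8.39 and 8.88 FPKM in Cck-/- libraries of week 28, which did not overlap (limma, log2 fold change 0.23, SE 0.079, adjusted p = 0.0713). Cacna1c, whose log2 fold change was 0.33 (SE 0.15, adjusted p = 0.162; limma), stood at 7.40, 8.57 and 7.11 FPKM in transgenic and 4.38, 6.396 and 7.18 FPKM in Cck-/- libraries. The loci of both overlap other genes, Dcp1b at Cacna1c and Dcp1a and Chdh at Cacna1d, and whether counting used strand is not given in the sources used here.

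Of the 4 cytoplasmic β subunits of calcium channels, Cacnb2 fell at week 28 and Cacnb4 at week 12. Cacnb2 (chr2:14604306-14987908, plus strand), the gene with the promoters shown above, stood at 8.28, 8.23 and 10.7 FPKM in transgenic and 14.1, 13.7 and 14.4 FPKM in Cck-/- libraries of week 28. The groups were well apart (limma, log2 fold change -0.59, SE 0.082, adjusted p = 0.000259), and the call held in each fit without 1 library. At week 12 it stood at 11.3, 9.89 and 11.1 FPKM in transgenic and 14.7, 12.9 and 13.5 FPKM in Cck-/- libraries, without overlap and short of the threshold (limma, log2 fold change -0.32, SE 0.082, adjusted p = 0.0680). At week 5 the values overlapped, 12.4, 11.2 and 11.1 FPKM in transgenic and 11.3, 12.4 and 11.9 FPKM in Cck-/- libraries. Its share of the β sum at week 28 was 9.06%, 9.10% and 11.3% in transgenic and 14.1%, 13.2% and 13.2% in Cck-/- libraries.

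Cacnb4 (chr2:52428320-52676609, minus strand), the lethargic gene and the β subunit with the highest level here, stood at 64.6, 61.8 and 67.6 FPKM in transgenic and 81.8, 73.5 and 80.3 FPKM in Cck-/- libraries of week 12. The groups did not overlap (limma, log2 fold change -0.28, SE 0.063, adjusted p = 0.0430). This was the only member called at week 12, where 22 of the 28 fold changes were negative, their median was -0.13 and 1.08% of all genes were called lower. The call was close to the threshold and was lost without any of 10 libraries, with adjusted p up to 0.227 without transgenic week 12 replicate 2, and without the libraries holding both Xist and Ddx3y (adjusted p = 0.284). The other 9 were transgenic week 5 replicate 3, week 12 replicate 1 and week 28 replicates 1 and 2, and Cck-/- week 5 replicates 1 and 3, week 12 replicates 1 and 3 and week 28 replicate 2. At week 28 Cacnb4 stood at 55.3, 55.3 and 56.9 FPKM in transgenic and 60.1, 63.5 and 67.3 FPKM in Cck-/- libraries, without overlap (limma, log2 fold change -0.18, SE 0.063, adjusted p = 0.0751). At week 5 it stood at 77.1, 65.1 and 67.9 FPKM in transgenic and 79.1, 72.6 and 78.0 FPKM in Cck-/- libraries, with overlap. Cacnb1 and Cacnb3 were called in no genotype comparison.

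None of the 3 expressed α2δ subunits was called between the genotypes. Cacna2d2, the ducky gene, which is strong in Purkinje cells, came nearest at week 28, with 27.2, 23.0 and 31.9 FPKM in transgenic and 30.9, 34.3 and 35.0 FPKM in Cck-/- libraries (limma, log2 fold change -0.29, SE 0.091, adjusted p = 0.0563). The groups overlapped in 1 pair of values, transgenic replicate 3 against Cck-/- replicate 1. Cacna2d1 and Cacna2d3, the α2δ genes of wider neuronal expression, ranged over 9.20 to 17.02 and 18.02 to 26.9 FPKM in all libraries.

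In the γ family, Cacng7 and Cacng2 fell at week 28 and the other 4 expressed genes were not called. Cacng7 (chr7:3336585-3366948, plus strand), whose protein is a TARP of cerebellar neurons, stood at 157, 131 and 181 FPKM in transgenic and 195, 206 and 203 FPKM in Cck-/- libraries (limma, log2 fold change -0.37, SE 0.081, adjusted p = 0.00797). Cacng2 (chr15:77993623-78119280, minus strand), the stargazer gene, stood at 29.3, 24.3 and 34.0 FPKM in transgenic and 37.5, 38.1 and 35.5 FPKM in Cck-/- libraries (limma, log2 fold change -0.34, SE 0.084, adjusted p = 0.0165). In neither gene did the groups overlap, and in both the lowest library was transgenic replicate 2 and the highest transgenic one replicate 3, the same order as the Purkinje cell marker sums. The Cacng2 call was lost without transgenic week 28 replicate 2 (log2 fold change -0.22, adjusted p = 0.0723), without Cck-/- week 28 replicate 2 (adjusted p = 0.0674) and without the libraries holding both Xist and Ddx3y (adjusted p = 0.0621). At week 12 Cacng7 stood at 206, 202 and 221 FPKM in transgenic and 230.0, 227 and 227 FPKM in Cck-/- libraries, and Cacng2 at 38.0, 36.8 and 39.0 FPKM in transgenic and 41.1, 41.6 and 39.1 FPKM in Cck-/- libraries. Neither passed the test at that age (adjusted p = 0.606 and 0.735; limma). At week 5 the values of both genes overlapped between genotypes: Cacng7 stood at 242, 221 and 224 FPKM in transgenic and 236, 246 and 239 FPKM in Cck-/- libraries, and Cacng2 at 41.2, 41.7 and 39.4 FPKM in transgenic and 38.0, 43.9 and 41.4 FPKM in Cck-/- libraries.

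Of the sodium channel pore genes, only Scn1a was called between genotypes, at week 5. Scn1a (chr2:66270782-66440837, minus strand) stood at 36.6, 34.4 and 32.8 FPKM in transgenic and 27.4, 30.2 and 30.0 FPKM in Cck-/- libraries of week 5. All transgenic values were higher (limma, log2 fold change 0.24, SE 0.058, adjusted p = 0.0211), while 3.3% of all genes were called higher and 4.37% lower. Of 10 inhibitory interneuron markers 5 were called higher and 1 lower at this age (median log2 fold change 0.26), of 10 myelin markers 5 lower, and of 9 endothelial and mural markers tested 1 higher and 3 lower. Their part in the Scn1a difference was not tested. Transgenic week 5 replicates 1 and 2 were those low in choroid plexus genes, and without both of them and the third such library the log2 fold change was 0.16 (adjusted p = 0.386). It was also lost without transgenic week 5 replicate 1 (adjusted p = 0.0793), without replicate 2 (0.0640) and without Cck-/- week 5 replicate 1 (0.1002). At week 12 the order was the other way round, 35.7, 32.4 and 35.4 FPKM in transgenic and 41.4, 36.9 and 38.1 FPKM in Cck-/- libraries, short of the threshold (limma, log2 fold change -0.17, SE 0.058, adjusted p = 0.220). At week 28 it was 36.4, 33.5 and 37.0 FPKM in transgenic and 39.2, 38.9 and 38.9 FPKM in Cck-/- libraries (limma, log2 fold change -0.13, SE 0.058, adjusted p = 0.176).

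Scn8a, the med gene and the main carrier of resurgent sodium current in Purkinje cells, stood at 29.0, 27.2 and 28.1 FPKM in transgenic and 26.9, 31.8 and 31.8 FPKM in Cck-/- libraries of week 28. The groups overlapped (limma, log2 fold change -0.097, SE 0.095, adjusted p = 0.565). It stood at 28.3, 24.3 and 29.7 FPKM in transgenic and 33.3, 29.6 and 31.0 FPKM in Cck-/- libraries at week 12, and at 32.0, 29.5 and 25.7 FPKM in transgenic and 25.6, 31.5 and 29.5 FPKM in Cck-/- libraries at week 5. The adjusted p was 0.457 at week 12 and 0.973 at week 5 (limma). Scn2a1 (Scn2a in GENCODE), a pore gene of unmyelinated axons, held the largest mean share of the sodium pore sum in each group, 42.3% ± 0.786 in transgenic and 40.6% ± 3.54 in Cck-/- libraries of week 28 (SD, n = 3 each).

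Scn4b, a sodium channel β subunit gene, fell at week 28. This gene (chr9:45139042-45154061, plus strand), whose cytoplasmic tail is held to block the open pore and give resurgent current, stood at 26.2, 20.8 and 21.7 FPKM in transgenic and 28.3, 31.3 and 32.0 FPKM in Cck-/- libraries. The groups did not overlap (limma, log2 fold change -0.40, SE 0.086, adjusted p = 0.00715). The call held in each fit without 1 library, but only just without transgenic week 28 replicate 2 (adjusted p = 0.0499; limma). Fitted on the week 28 libraries alone, the adjusted p was 0.0872 (limma). At week 12 it stood at 24.1, 23.1 and 21.9 FPKM in transgenic and 30.9, 26.2 and 25.8 FPKM in Cck-/- libraries, without overlap (limma, log2 fold change -0.25, SE 0.086, adjusted p = 0.211). At week 5 it stood at 21.0, 21.8 and 20.3 FPKM in transgenic and 21.6, 24.9 and 24.6 FPKM in Cck-/- libraries, with overlap.

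Scn2b stood at 69.6, 69.3 and 83.2 FPKM in transgenic and 73.7, 100.1 and 95.9 FPKM in Cck-/- libraries of week 28 and was not called (adjusted p = 0.110; limma); its locus overlaps Amica1 and Gm10684.

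**Figure D4:**
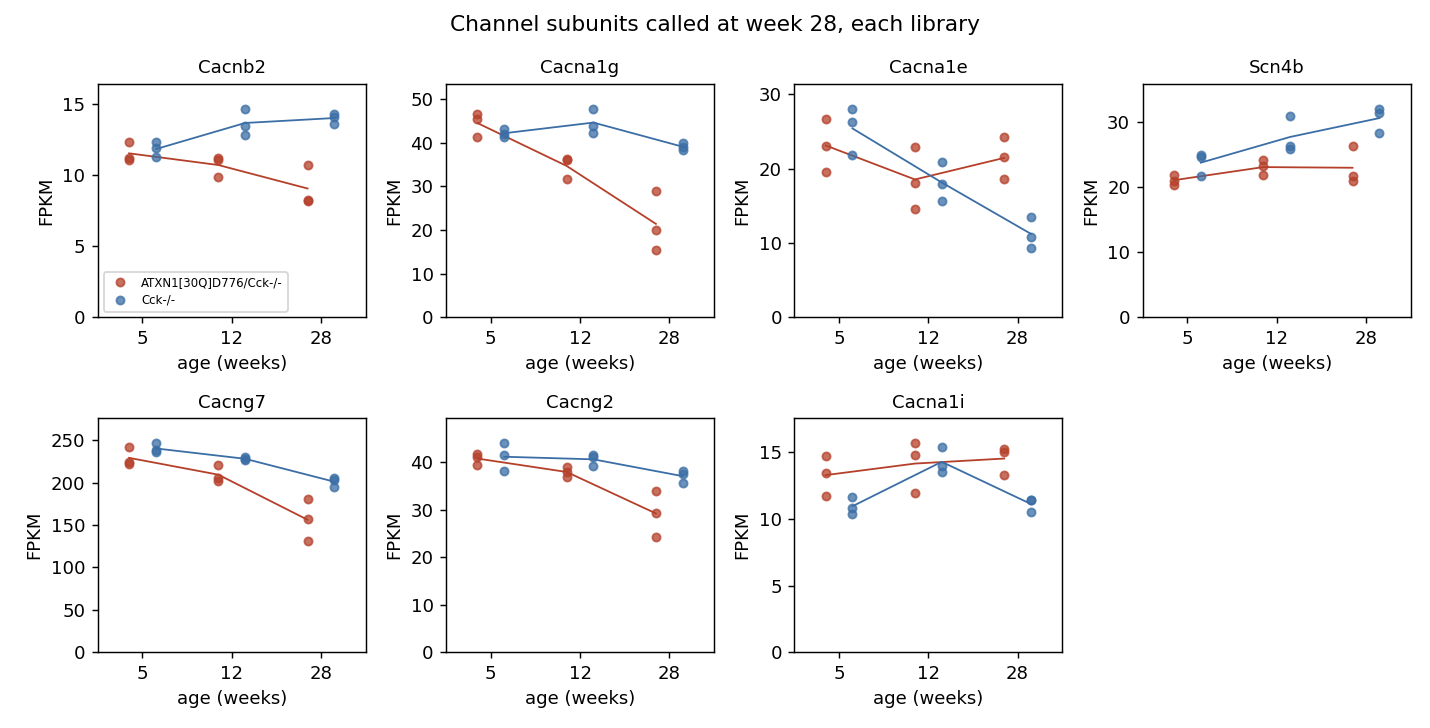
FPKM by age in weeks (equally spaced) of 7 members called between genotypes at week 28; each point is 1 library, transgenic left and Cck-/- right, and lines join group means. Cacna1g and Cacnb2 in transgenic libraries are lowest at week 28, while Cacna1e in Cck-/- libraries is lowest there (9.40 to 13.5 FPKM).

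Of the 8 members called at week 28, 2 kept their call when only the 6 week 28 libraries were fitted, Cacna1e (adjusted p = 0.0304) and Cacnb2 (0.0374). Other markers moved at that age too: 6 of 8 microglial markers and 4 of 10 myelin markers rose, 4 of 8 markers of astrocytes and Bergmann glia fell and 3 rose, and 1 of 12 granule cell markers rose. The microglial sum was 195, 248 and 173 FPKM in transgenic and 156, 117 and 107 FPKM in Cck-/- libraries, and the granule cell sum was 1895, 1890.4 and 1951 FPKM in transgenic and 1517, 2027 and 2178 FPKM in Cck-/- libraries. Their part in the channel results was not tested.

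Whether the genotype effect differed between ages was tested directly. Between weeks 28 and 5, the effect differed for 4 members (14.3%), against 3.65% of all genes, of which 1.73% were higher and 1.92% lower. It was lower at week 28 for Cacna1g (difference of log2 fold changes -0.96, SE 0.20, adjusted p = 0.0237), Cacnb2 (-0.55, SE 0.12, adjusted p = 0.0237) and Scn1a (-0.37, SE 0.082, adjusted p = 0.0282), and higher for Cacna1e (1.02, SE 0.23, adjusted p = 0.0317; limma for all). Between weeks 12 and 5 it differed for Scn1a (-0.40, SE 0.082, adjusted p = 0.0361; limma), against 0.667% of all genes (0.452% higher and 0.215% lower). Between weeks 28 and 12 limma called 0 members and 0% of all genes, which does not show that the effects were equal. These comparisons share libraries, and those with week 5 take in the difference in Cck given above.

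Age effects within a genotype followed. In transgenic libraries 8 members were called from week 12 to week 28 (28.6%), against 23.8% of all genes (10.2% higher and 13.7% lower). Those with the smallest p all fell but for 1: Cacng7 (log2 fold change -0.43, adjusted p = 0.00215), Cacna1g (-0.71, adjusted p = 0.00312), Cacng2 (-0.38, adjusted p = 0.00594), Scn2b (-0.44, adjusted p = 0.00807), Cacnb4 (-0.21, adjusted p = 0.0269) and, rising, Cacng3 (0.39, adjusted p = 0.0191; limma for all). The other called members were Cacnb1, which rose by 0.26, and Cacng5, which fell by 0.46. Purkinje cell markers fell over the same interval in these libraries, 18 of 18, and 8 of 8 microglial markers rose. Cacna1g, Cacng2, Cacng7 and Scn2b kept the call without each library in turn. With only the 6 transgenic libraries of weeks 12 and 28 fitted, 3 of the 8 kept it (Cacnb4, Cacng3 and Scn2b), and without the libraries holding both Xist and Ddx3y another 3 did (Cacna1g, Cacng2 and Cacng7). Cacng3 and Cacnb1 lost it without transgenic week 12 replicate 2 or 3 or week 28 replicate 2 (adjusted p up to 0.0969 and 0.137), Cacnb4 without transgenic week 12 replicate 3 or week 28 replicate 1 or 2 (up to 0.105), and Cacng5 without any of 10 libraries (up to 0.203, without transgenic week 28 replicate 1). Those 10 were transgenic week 5 replicate 2, week 12 replicates 2 and 3 and week 28 replicates 1 and 2, and Cck-/- week 5 replicates 1, 2 and 3 and week 28 replicates 2 and 3.

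In Cck-/- libraries 3 members fell from week 12 to week 28 (10.7%), against 9.65% of all genes called (4.03% higher and 5.62% lower): Cacnb4 (log2 fold change -0.30, adjusted p = 0.00927), Cacna1e, whose values stand above, and Cacna1i (-0.33, adjusted p = 0.0359; limma). Cacnb4 was thus lower at week 28 than at week 12 in both genotypes, at 55.8 ± 0.892 against 64.7 ± 2.88 FPKM in transgenic and 63.6 ± 3.61 against 78.5 ± 4.39 FPKM in Cck-/- libraries (SD, n = 3 each). Its transgenic fall had an adjusted p of 0.156 with quantile normalization. The Cacna1i call was lost without any of the 6 Cck-/- libraries of weeks 12 and 28 (adjusted p up to 0.123, without week 12 replicate 1). Fitted on those 6 libraries alone, limma called 0 members. No Purkinje cell marker was called in this interval in Cck-/- libraries.

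From week 5 to week 12, limma called 0 members in transgenic libraries, against 1.19% of all genes (0.593% higher and 0.601% lower). In Cck-/- libraries it called 3 (10.7%), against 11.8% of all genes (5.29% higher and 6.53% lower). In the same libraries 9 of 10 myelin markers (median log2 fold change -0.98) and 3 of 6 oligodendrocyte precursor markers fell, and their part in the channel changes was not tested. Scn1a rose (log2 fold change 0.40, SE 0.058, adjusted p = 0.00047), with 41.4, 36.9 and 38.1 FPKM at week 12 and 27.4, 30.2 and 30.0 FPKM at week 5. Cacnb3, a β subunit gene, fell (-0.28, SE 0.059, adjusted p = 0.00603), with 18.9, 20.6 and 18.8 FPKM at week 12 and 23.9, 24.6 and 23.1 FPKM at week 5. Cacna1i rose (0.35, SE 0.093, adjusted p = 0.0222; limma), but not without Cck-/- week 5 replicate 1 or 3 or Cck-/- week 12 replicate 1 or 2 (adjusted p up to 0.0952).

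Other genes of channel placement and gating were read beside the subunits. The list held 24 genes, of which 22 were tested. At week 28, 4 of them were called (18.2%, against 10.7% of all genes): Stac, whose protein binds calcium channels, fell (2.25 ± 0.65 FPKM in transgenic and 5.36 ± 0.36 FPKM in Cck-/- libraries, SD, n = 3 each; log2 fold change -0.99, SE 0.11, adjusted p = 3.2e-05; limma). Fgf11, of the intracellular fibroblast growth factor family that binds sodium channel pores, fell by 0.60 (adjusted p = 0.00978), and Fam155a, a subunit of the sodium leak channel, fell by 0.19 (adjusted p = 0.0363; limma). Cntn2, an axonal adhesion molecule, rose by 0.32 (adjusted p = 0.0310; limma). The median of the 22 was -0.062, against 0.0046 for all genes. At week 12 limma called 0 of them, against 1.36% of all genes. At week 5 limma called 2 of them (9.09%, against 7.67% of all genes). Nalcn, the pore of the sodium leak channel, rose by 0.28 (adjusted p = 0.00319) and Fgf13 fell by 0.29 (adjusted p = 0.0250; limma).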

How the data were processed

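RNA from dissected cerebella was extracted with TRIzol and RNeasy columns and made into Illumina TruSeq libraries, per the labels' protocols. Reads were aligned with TopHat2 2.0.11 to mm10 and quantified with Cufflinks 2.2.1, per the submitters' processing notes; the values used are the FPKM per gene symbol deposited by the authors in a Cuffnorm table of 18 libraries. Which annotation and library normalization were used, and whether strand was, is not given in the sources used here. Another 54 per-sample columns, for confidence bounds and status, were not used. Positions in the table were read as counted from 0, since adding 1 gave a GENCODE transcript start for 24 of the 40 members, against 3 as given; the text counts from 1.

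Log2(FPKM + 1) values of 13487 genes (at least 1 FPKM in 3 or more libraries) were fitted with limma 3.58.1 (mean-variance trend, R 4.3.3), with 6 group means and 12 residual degrees of freedom. There were 10 comparisons, with two-sided p-values adjusted by Benjamini and Hochberg over all genes within each and calls made under 0.05. Fold changes are on the log2(FPKM + 1) scale, which understates changes of low genes. The script was tested on simulated data. The members, the 13 marker lists and the list of channel partners were chosen with earlier results of these data known, so no list gives independent support. Values in every library are given for members called in a genotype effect and for Cacna1a, Cacna1g, Scn1a and Scn8a, and up to 6 members per age effect or interaction are given by smallest p; others named with library values were added after their values were seen.

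Alternatives were a pseudocount of 0.1, no filter, a minimum mean FPKM of 5, quantile normalization, median-ratio scaling, the compared groups alone, replicate numbers as a block and leaving out each library; leaving out libraries low in choroid plexus genes or with both Xist and Ddx3y was added after seeing the data. Equal replicate numbers were checked for pairing and showed none, though a check with 3 libraries per group cannot exclude it. Promoter sequences came from RefSeq (GRCm38.p6). The software also included matplotlib 3.10.9, numpy 2.4.6 and pandas 2.3.3 (Python 3.11.15), and data.table in version 1.17.8. Some members and markers are counted but not reported here by name.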

Additional observations from a re-analysis of the deposited data

Results flagged for a closer look

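In 5 cases the effect of genotype on a channel subunit differed between ages by a test of the difference itself (limma, Benjamini-Hochberg). From week 5 to week 28 the log2 fold change of transgenic over Cck-/- libraries moved by 1.01535 for Cacna1e, by -0.956213 for Cacna1g, by -0.551955 for Cacnb2 and by -0.365572 for Scn1a. From week 5 to week 12 it moved by -0.402915 for Scn1a.

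Each of these calls rested on some libraries. The Cacna1e call was lost (adjusted p up to 0.0853) without transgenic week 28 replicate 1 or 2, transgenic week 5 replicate 2 or 3, Cck-/- week 28 replicate 2 or Cck-/- week 5 replicate 2 or 3. That of Cacna1g was lost (up to 0.0684) without transgenic week 28 replicate 1, Cck-/- week 28 replicate 2 or Cck-/- week 5 replicate 1 or 3. That of Cacnb2 was lost (up to 0.0684) without transgenic week 28 replicate 1 or 2, transgenic week 5 replicate 1 or Cck-/- week 5 replicate 1 or 3. The week 28 call of Scn1a was lost (up to 0.0767) without transgenic week 28 replicate 1 or 2, transgenic week 5 replicate 1 or 2, Cck-/- week 28 replicate 2 or 3 or Cck-/- week 5 replicate 1 or 3. The week 12 call of Scn1a was lost (up to 0.105) without 11 libraries: transgenic week 12 replicates 2 and 3, week 28 replicate 1 and week 5 replicates 1 and 2, and Cck-/- week 12 replicates 1 and 3, week 28 replicate 2 and week 5 replicates 1, 2 and 3. Without the libraries low in choroid plexus genes both Scn1a calls were lost (adjusted p = 0.121 for week 28 and 0.352 for week 12), and without those holding both Xist and Ddx3y all 5 calls were lost (from 0.0631 for Scn1a at week 28 to 0.136 for Scn1a at week 12). In all of these fits the sign was kept. All 5 involve the week 5 libraries, which differ in Cck.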

How the results depend on the processing

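Over 27 alternatives, 39 results for single genes gave 1052 recomputed values, of which 917 kept their side of the threshold, 134 fell short of it, 1 newly passed it and 0 changed sign among called values. Counts of called members that moved by over 1.5 times were as follows. With no filter on low values, week 5 gave 2, week 12 gave 0 and the week 12 against 5 interaction gave 2. With only the compared groups fitted, which leaves fewer samples, genotype effects gave 0 at week 12 and 2 at week 28, interactions gave 0 (week 12 against 5) and 2 (week 28 against 5), and age effects gave 7 (Cck-/-, week 5 to 12), 3 (transgenic, week 12 to 28) and 0 (Cck-/-, week 12 to 28). Without the libraries low in choroid plexus genes, week 5 gave 0, week 12 gave 2, the interactions of week 12 against 5 and week 28 against 12 gave 0 and 1, and Cck-/- from week 5 to 12 gave 5. Without those with both Xist and Ddx3y, week 12 gave 0, the interactions with week 5 gave 0 each and transgenic from week 12 to 28 gave 3. The cause was not tested. Leaving out 1 library at a time gave 0 to 1 (week 5), 0 to 3 (week 12), 5 to 11 (week 28), 0 to 1, 0 to 7 and 0 to 1 (interactions of week 12 against 5, 28 against 5 and 28 against 12), 0 to 0 and 2 to 6 (week 5 to 12, transgenic and Cck-/-), and 4 to 11 and 1 to 3 (week 12 to 28, transgenic and Cck-/-). Other scalings moved the median of all genes by less than 0.01. Depth is unknown, so counting error could not be set beside any value.

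Libraries of equal replicate number were compared by correlating their deviations from the group means. The correlations ran from -0.388 to 0.435, with both signs, and showed no steady pairing. With 3 libraries per group such a check cannot exclude pairing. With replicate numbers as a block, the counts were 1, 1 and 9 for the genotype effects at weeks 5, 12 and 28, 1, 4 and 0 for the interactions in the order above, and 0, 3, 7 and 3 for the age effects.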

Other observations

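Members that lie side by side in the genome had very different levels. On chromosome 7, Cacng7, Cacng8 and Cacng6 follow each other within 1 stretch (starts at 3336585, 3394117 and 3424662, mm10) with means over the 18 libraries of 211, 7.97 and 0.0116 FPKM. On chromosome 2, Scn2a1 and Scn1a (means 54.7 and 35.3 FPKM) lie in 1 cluster with Scn3a, Scn9a and Scn7a (0.777, 0.154 and 0.383 FPKM).

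Scn11a, a silent sodium pore gene of sensory neurons, stood at 0.0691, 0.0309 and 0.0652 FPKM in transgenic and 0.278, 0.226 and 0.383 FPKM in Cck-/- libraries of week 5. The Cck-/- week 5 libraries were the highest of all 18 for this gene, and with no filter on low values limma called it lower in transgenic libraries at that age; in the other 12 libraries it was at most 0.0547 FPKM. Such levels are too low to weigh without counts.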
